A study of Mus musculus with 8 samples.

Results

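The early-lesion-only distal regions between genes are stretches of the mouse genome, away from protein-coding genes, where the transcription factor ZFP281 had a binding summit in every early lesion library and in no primary tumour library. Summits of 6 lists were merged into regions when at most 200 bp apart. A region was chosen by 3 conditions: a summit in all 3 early lesion (EL) lists, none in the 3 primary tumour (PT) lists, and a place over 5 kb from every boundary of a protein-coding gene and inside no such gene. Of 19317 regions, 537 met them. They made up 27.7% of the 1937 EL-only regions of any place. Over all regions 10% were EL-only, against 11.7% of the 4597 regions between genes, 11.2% of the regions over 5 kb from a boundary inside genes and 8.53% of those nearer to a boundary. The presence in EL and the absence from PT selected these regions and are therefore a description, without a test.

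Chromatin immunoprecipitation sequencing was carried out on spheres from MMTV-HER2/Neu mice of FvB background, in which the mouse mammary tumour virus promoter drives the HER2/Neu oncogene in the mammary epithelium. EL spheres came from mammary glands of animals aged 14 to 18 weeks with no palpable tumour, and PT spheres from the tumours of animals over 20 weeks old. Both were cultured for 7 days in mammosphere medium on ultra-low adhesion plates, so age, stage and source tissue differ together between the groups and cannot be told apart. The ZFP281 libraries numbered 3 per group; the labels speak of biological replicates and do not name the animals. The 1 input library per group was not analysed here. The tissue label of the EL samples reads mammary lung, and all cells carry the label breast cancer cells. No expression data accompany the summits, so the labelled cell type could not be checked against its markers. In such bulk samples, fewer cells with a bound site and less binding per cell cannot be told apart.

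ZFP281 is a zinc finger protein that binds G-rich DNA and is known for its part in the control of pluripotency and of epithelial to mesenchymal transition (EMT). Enhancers are DNA elements that raise transcription of a gene from a distance, often from between genes, and a factor bound there need not act on the nearest gene. Summits far from genes can mark such elements, but a summit alone does not show that an element is active.

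The lists differed in length. From replicate 1 to 3, the EL lists held 8588, 15770 and 7055 summits and the PT lists 2897, 4030 and 6033, and read depth is unknown. Of these, 20.4%, 24.1% and 20.7% lay between genes in EL and 17.6%, 18.2% and 19.5% in PT. A shorter PT list has fewer chances to hold a summit at any region. With the lists shortened to the 2897 top-scoring summits of each library, 129 regions met the rule, of which 102 overlapped one of the 537. Without EL replicate 3, 893 regions met it. With summits merged at 50 bp, 303 did, and 303 also lay clear of every annotated gene, non-coding ones included.

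Sequence could be read where a region reached into a RefSeq promoter window of a long non-coding RNA (lncRNA), from 250 bases before a start to 50 bases after it. Such windows numbered 21 for 19 of the 537 regions, and 12 of these regions had all 3 EL summits inside. Of these, 7 are printed: 6 chosen because they hold a motif counted below, and 1 of the 7 windows that hold neither of the 2 motifs marked, the one whose region ranked highest by its weakest EL summit. The sequences are those of the reference genome (RefSeq, GRCm38.p6), not of the FvB mice. Each is printed on the strand of the lncRNA, 5′ to 3′, and covers the region with up to 40 bases to either side within the window. Capitals mark CCCTCCCC, a C-rich run of the ZFP281 type, or TGANTCA, the site type of AP-1 (the dimer of JUN and FOS proteins), on either strand. The first group holds the C-rich run, from chr5:118381011-118381161 (minus strand), chr7:36076176-36076292 (plus) and chr14:106265170-106265310 (plus).
Gm30604: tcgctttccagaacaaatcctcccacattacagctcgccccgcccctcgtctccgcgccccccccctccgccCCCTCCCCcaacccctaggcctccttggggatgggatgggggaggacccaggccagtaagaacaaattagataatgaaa
Gm38991: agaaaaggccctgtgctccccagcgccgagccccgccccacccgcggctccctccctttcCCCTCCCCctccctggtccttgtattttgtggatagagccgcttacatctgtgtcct
Gm36107: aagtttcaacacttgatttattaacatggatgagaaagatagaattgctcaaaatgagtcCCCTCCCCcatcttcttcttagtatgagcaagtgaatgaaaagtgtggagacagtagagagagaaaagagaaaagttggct

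The second group holds the AP-1 type site, from chr4:95094703-95094862 (plus strand) and chr10:67778366-67778491 (minus), and in Gm36102, from chr1:92751925-92752079 (plus), both motifs occur.
Junos: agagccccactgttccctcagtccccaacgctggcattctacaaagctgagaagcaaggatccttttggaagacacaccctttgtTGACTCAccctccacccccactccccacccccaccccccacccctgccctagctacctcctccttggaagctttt
Gm40681: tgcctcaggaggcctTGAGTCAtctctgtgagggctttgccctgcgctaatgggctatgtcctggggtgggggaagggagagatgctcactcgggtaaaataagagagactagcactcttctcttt
Gm36102: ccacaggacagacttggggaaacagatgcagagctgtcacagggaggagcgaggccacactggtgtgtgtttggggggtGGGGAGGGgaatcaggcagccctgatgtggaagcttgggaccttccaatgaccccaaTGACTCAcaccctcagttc

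The window of 4930573C15Rik, from chr5:146703759-146703867 (plus strand), held neither motif although all 3 EL summits of its region lay inside it.
4930573C15Rik: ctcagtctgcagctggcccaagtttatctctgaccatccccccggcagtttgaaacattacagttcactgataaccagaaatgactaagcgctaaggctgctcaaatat

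The distance from a motif to the binding summits varied between windows. The nearest C-rich run was 3 bp from the median EL summit in Gm38991, 13 bp in Gm36102, and 29 bp in Gm30604 and in Gm36107. It was 40 bp away in Gm45920, 120 bp in Gm32316 and 170 bp in Gm36154. The AP-1 type site lay 8 bp from the median summit in Junos, 23 bp in 1110002J07Rik, 41 bp in Gm40681 and 69 bp in Gm36102. In Gm44507 and Gm29686 it lay 105 and 203 bp away. In the windows with motif distances of 105 bp or more, not all 3 EL summits lay inside. A nearer motif beyond the edge of such a window could not be seen. The C-rich run was in 8 of the 21 windows (38.1%), in 8 of 14 windows of regions bound in all 6 libraries (57.1%), and in 7.97% of all 11587 lncRNA windows. TGANTCA was in 7 of the 21 windows (33.3%), in 2 of the 14 (14.3%) and in 9.31% of all. Between them these motifs occurred in 14 windows, and 1 window held both. The windows with an EL-only summit had a median GC content of 54.0%, against 65.5% for the 14 and 48.3% for all, and the part of base composition in the motif shares was not tested.

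Of the other motifs searched on both strands, none had a share that stood as far from all lncRNA windows. CANCTG, the E-box of basic helix-loop-helix factors, was in 57.1% of the 21 windows and in 56.6% of all. GGAATG of TEAD factors was in 14.3% and 16.6%, and AGGTCA of nuclear receptors in 14.3% and 19.1%. TGTTTAC of forkhead factors, AACCACA of RUNX factors and the repeat ACACACAC were in 1 window each (4.76%), with 4.83%, 6.29% and 3.96% of all windows. A motif match describes letters and does not show a bound site. The 21 windows are few, include overlapping windows of the same lncRNA, and all lie at starts of lncRNAs, so they do not stand for the 537 regions.

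Most of the 537 regions had middling scores. The deposited score was turned into a percentile within each list, from 0 for the weakest summit to 100 for the strongest. The median percentile of the regions was 53.6 in EL replicate 1, 74.7 in EL replicate 2 and 50.5 in EL replicate 3. Replicate 2 had the longest list, and it gave the highest of the 3 percentiles in 408 regions. The lowest of the 3 percentiles had a median of 37.5, against 74.6 over the 214 between-gene regions bound in all 6 libraries. This median was 36.6 over the EL-only regions inside genes and 32.6 over those at gene boundaries, so middling scores were shared by all EL-only classes. Among the 537, the lowest percentile reached at least 50 in 199 regions, at least 75 in 59 and at least 90 in 8. It was under 10 in 52. The EL libraries ranked the regions in a partly shared order, with Spearman's rho across the 537 regions of 0.632 for replicates 1 and 2, 0.507 for 1 and 3 and 0.597 for 2 and 3. Across the 214 regions bound in all 6 libraries it was 0.880, 0.799 and 0.873.

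**Figure D1:**
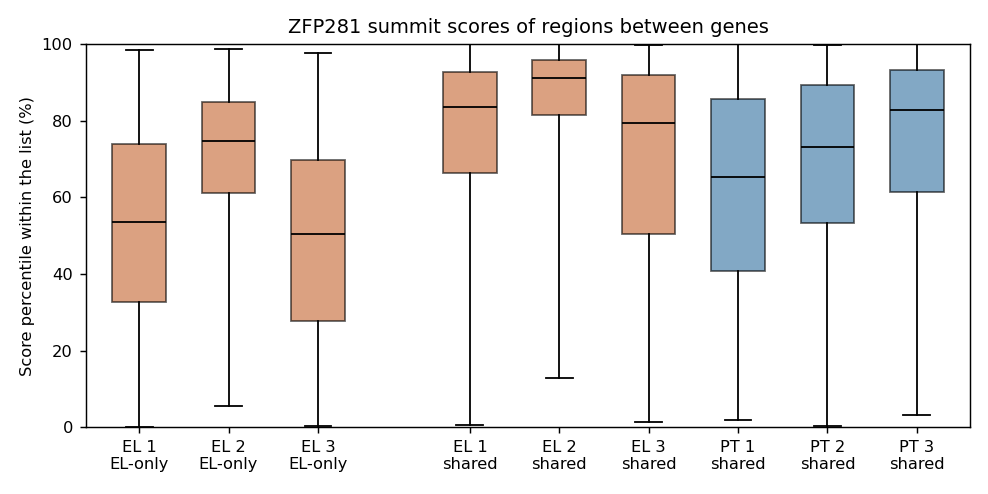
Score percentile within each list (vertical axis, %) of the 537 EL-only regions between genes in the EL libraries (left) and of the 214 between-gene regions bound in all 6 libraries (right); boxes span the quartiles with the median as a line, and whiskers reach the lowest and highest region. The EL-only medians are 53.6, 74.7 and 50.5, below the medians of the shared regions in the same libraries.

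The stronger the EL summits of a region, the less often it lacked a PT summit. In all, 1006 regions between genes had a summit in all 3 EL lists, and 537, 141, 114 and 214 of them had a summit in 0, 1, 2 and 3 PT lists. Of the 141 found in a single PT list, 107 were in PT replicate 3, the longest PT list, 20 in replicate 2 and 14 in replicate 1. The share with no PT summit was 72.6% of the 266 regions whose lowest EL percentile was under 25. It fell from bin to bin to 59.9%, 49.5%, 35.9% and 11.0% for lowest percentiles of 25 to 50, 50 to 75, 75 to 90 and 90 to 100. In every bin this share was larger than at gene boundaries, where it went from 50.7% to 2.79%. Inside genes it went from 66.1% to 13.2%, below the share between genes except in the top bin, which held 73 regions between genes and 91 inside. These shares use the values that chose the regions and are given without a test.

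**Figure D2:**
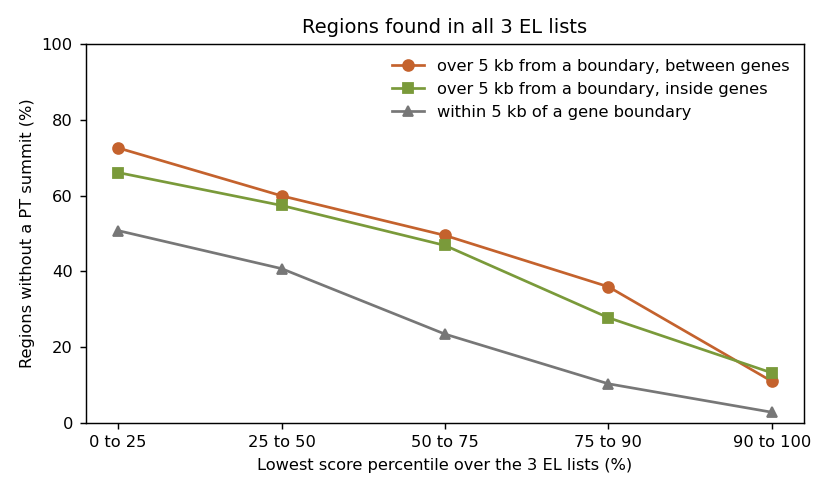
Share of regions found in all 3 EL lists that have no PT summit (vertical axis, %), by the lowest of their 3 EL score percentiles (horizontal axis, 5 bins) and by place. Each line falls with the percentile, from 72.6% to 11.0% between genes and from 50.7% to 2.79% at gene boundaries.

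The strongest EL-only region lay upstream of Pim1, which encodes a serine/threonine kinase of the PIM proto-oncogene family. It spans chr17:29469961-29470012, 20773 bp from the gene, with percentiles of 98.3, 98.7 and 97.6 in EL replicates 1, 2 and 3. A weaker EL-only region, at chr17:29451519-29451693, had percentiles of 32.6, 38.5 and 27.8. Other ZFP281 sites of the same locus were bound in PT too. At the Pim1 start the summit was in all 6 libraries, with percentiles of 94.1, 97.2 and 91.2 in EL and 78.8, 68.6 and 94.4 in PT, and a region between the 2 EL-only regions was likewise in all 6.

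Upstream of Col1a2, the gene of a type I collagen chain, lay 4 EL-only regions, and no PT summit lay nearer than 111041 bp to any of them. The region at chr6:4490132-4490138, 15480 bp from the gene, had percentiles of 97.3, 97.1 and 92.0 in EL replicates 1, 2 and 3. The region at chr6:4457837-4457864, 47754 bp away, had 93.1, 96.9 and 94.5. The regions at 49412 and 88048 bp had a lowest percentile of 74.4 each. The Col1a2 start had a summit in the 3 EL libraries, with percentiles of 37.5, 84.4 and 72.9, and in no PT library. This locus therefore differed from that of Pim1, where PT summits stood beside the EL-only regions.

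**Figure D3:**
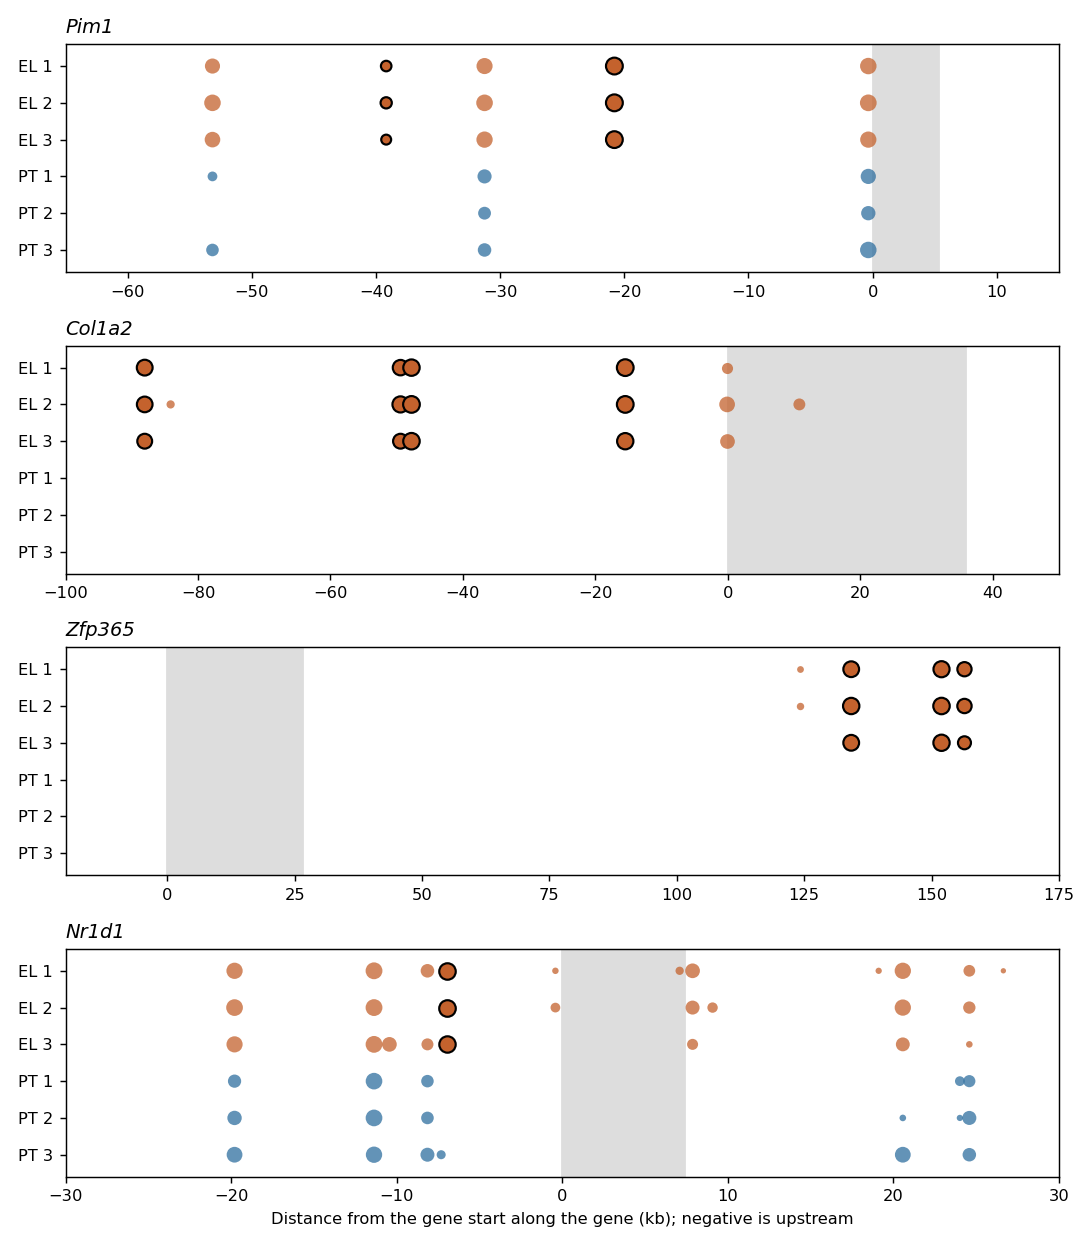
Summits around Pim1, Col1a2, Zfp365 and Nr1d1, by distance from the gene start along the gene (horizontal axis, kb, negative upstream) and by library (rows); the grey band is the gene, dot area grows with the score percentile, and outlined dots are EL-only regions between genes. The rows of the PT libraries are empty in the stretches shown around Col1a2 and Zfp365 and filled beside the EL-only regions of Pim1 and Nr1d1.

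The other regions among the 10 with the highest lowest percentile lay near genes of several kinds. P2ry6, a nucleotide receptor, had an EL-only region 9436 bp away, at chr7:100984934-100984957, with percentiles of 97.1, 97.3 and 95.6 in EL replicates 1, 2 and 3. Fzd2, a receptor for WNT ligands, had one 16225 bp away, at chr11:102624283-102624365, with 94.6, 96.4 and 96.2. For Fzd2 the absence from PT rests on the merging distance, since a summit of PT replicate 1, at percentile 12.5 of its list, lay 233 bp from the region.

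Nr1d1, a nuclear receptor of the circadian clock also called Rev-erb alpha, had an EL-only region 6941 bp upstream, at chr11:98782318-98782330, with percentiles of 94.2, 95.4 and 93.0. There a summit of PT replicate 3, at percentile 21.4, lay 360 bp away. Ampd3, an AMP deaminase, had a region 13642 bp upstream with 94.1, 94.2 and 96.7. Slc44a3, of the choline transporter-like family, had one 56795 bp upstream with 95.4, 98.1 and 93.7. Spdl1, a protein of the mitotic kinetochore, had one 12081 bp upstream with 89.3, 95.6 and 94.5. These 4 regions stood near the top of every EL list.

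Zfp365, a zinc finger gene, was the nearest gene of 3 EL-only regions within 22273 bp, at chr10:67756179-67778451. The strongest of them, 125385 bp downstream of the gene, had percentiles of 89.4, 94.1 and 91.9 in EL replicates 1, 2 and 3, and the nearest PT summit lay 431455 bp from it. Another is the region at the start of the lncRNA Gm40681, whose sequence with the AP-1 type site is printed above, with 85.0, 92.5 and 85.3. At the other end of the scale were Rarb, a retinoic acid receptor, with a region at percentiles of 0.163, 34.2 and 24.9, Stx11, a syntaxin, with 7.71, 9.30 and 0.461, and Col1a1, the partner chain of type I collagen, with 57.0, 75.4 and 0.574. For Col1a1 the low value came from EL replicate 3 alone.

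The limits of the rule divided regions with similar positions. The regions just over 5 kb from a gene lay 5035, 5103 and 5114 bp from Rnf157, Trim44 and Rhov, and those just under it 4897, 4796 and 4794 bp from Susd6, Rrp1 and Fam25c. The nearest PT summit that was not merged lay 211 bp from a region near Tmem189, 220 bp near Hbegf and 224 bp near B4galnt4. Regions that merged a PT summit at a gap of 196, 172 and 160 bp lay near Mrpl45, Mrps18a and Ndufb4. Among the 537, 12 (2.23%) had a PT summit within 1 kb, and 2 of these, near Hbegf and Ephb3, had one of each PT library there.

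The regions were narrow and lay far from genes. The summits of a region spanned a median of 69 bp, from 4 to 347 bp. The nearest protein-coding gene was at a median of 34904 bp, with quartiles of 14446 and 85588 bp, against 21918 bp for the 214 regions bound in all 6 libraries and 32261 bp for all regions between genes. At over 100 kb lay 114 regions up to 500 kb and 6 beyond it, the farthest 1253655 bp upstream of Zeb2. Of 393 regions whose nearest gene had a known strand, 201 (51.1%) lay upstream of it, against 54.1% over all regions between genes.

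Most of the 537 regions lay apart from one another. With a gap of at most 20 kb, 463 were single, 68 formed 34 pairs and 6 formed 2 groups of 3, at Zfp365 and at Septin9, a cytoskeletal septin gene. Another of the 537 lay within 20 kb of 13.8% of them, and the 214 regions bound in all 6 libraries had a similar share, 12.6%. Other summits were not counted here, and a PT summit lay within 20 kb of 142 of the 537 (26.4%). A PT summit lay within 50 kb of 247 regions (46.0%), against 61.2% of the regions bound in all 6 libraries. The median distance to a PT summit was 60130 bp against 33014 bp. EL-only regions inside genes had similar values to those between genes, 47.5% and 57405 bp. The absence or presence of PT summits chose these classes, so the values are given without a test. Chromosome 2 held the most, 43 regions (8.01%), and it also held the most regions between genes, 373.

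The 537 regions had 458 nearest protein-coding genes, 2.09% of all 21887. Of these genes, 392 had 1 region, 56 had 2, 7 had 3, and Col1a2, Med13l (a Mediator subunit) and Tle3 (a transcriptional corepressor) had 4. For Med13l they lay between 47418 and 402601 bp away, and its boundary had a summit in all 6 libraries. For Tle3 they lay between 10984 and 208428 bp away, and its boundary had a summit in 2 EL libraries and no PT library. Vegfa, the vascular endothelial growth factor gene, had 3 regions, with lowest percentiles from 24.9 to 36.6, and no boundary summit in any library.

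Summits at the boundaries of these nearest genes were not used by the rule, so they were compared between EL and PT. A summit within 1 kb of a boundary was present for 26.4%, 36.5% and 23.1% of the 458 genes in EL replicates 1, 2 and 3. In the PT libraries, in the same order, it was present for 10.5%, 15.1% and 20.5%. Over all protein-coding genes it was present for 13.5%, 20.8% and 11.7% in EL and for 5.76%, 7.53% and 11.1% in PT. All EL values of the 458 genes were above the PT values, as they were for all genes. The ratio of the nearest genes to all genes within a library was 1.96, 1.75 and 1.97 in EL and 1.82, 2.00 and 1.84 in PT, and the groups overlapped. The mean ratio was 1.90 ± 0.125 (SD, n = 3) in EL and 1.89 ± 0.0993 (SD, n = 3) in PT. The difference of 0.00757 was smaller than the spread between libraries (exact permutation test, two-sided, p = 1, adjusted p = 1 over 2 tests). With 20 relabellings the smallest p is 0.1, so neither test could pass 0.05.

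A boundary summit was absent from all 6 lists for 281 of the 458 nearest genes (61.4%), against 76.9% of all protein-coding genes. A boundary summit in all 3 EL lists and no PT list was found for 23 (5.02%), against 1.94% of all genes, and in all 6 lists for 41 (8.95%), against 4.39%. For the nearest genes of regions bound in all 6 libraries the mean ratio to all genes was 1.83 in EL and 2.20 in PT, and for those of all regions between genes 1.62 and 1.71. Genes near any bound region between genes thus had boundary summits more often than all genes, and the EL-only regions were not tested against these classes.

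The other comparison was of further summits around the regions. The summits of the regions themselves, 537 in each EL list and 0 in each PT list, were first taken out of the lists. Of the summits that remained, 6.76%, 6.38% and 6.93% lay within 50 kb of a region in EL replicates 1, 2 and 3. The shares were 6.11%, 6.05% and 6.53% in PT replicates 1, 2 and 3. The summits taken out lie in the regions themselves, so their removal lowered the EL shares and left the PT shares as they were. The EL shares were thus taken of shortened lists and the PT shares of whole lists. The part of this in the difference was not tested. The lowest EL value lay below the highest PT value, so the groups overlapped. The EL mean of 6.69% ± 0.283 (SD, n = 3) and the PT mean of 6.23% ± 0.260 (SD, n = 3) gave a difference of 0.459 percentage points (exact permutation test, two-sided, p = 0.2, adjusted p = 0.4).

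**Figure D4:**
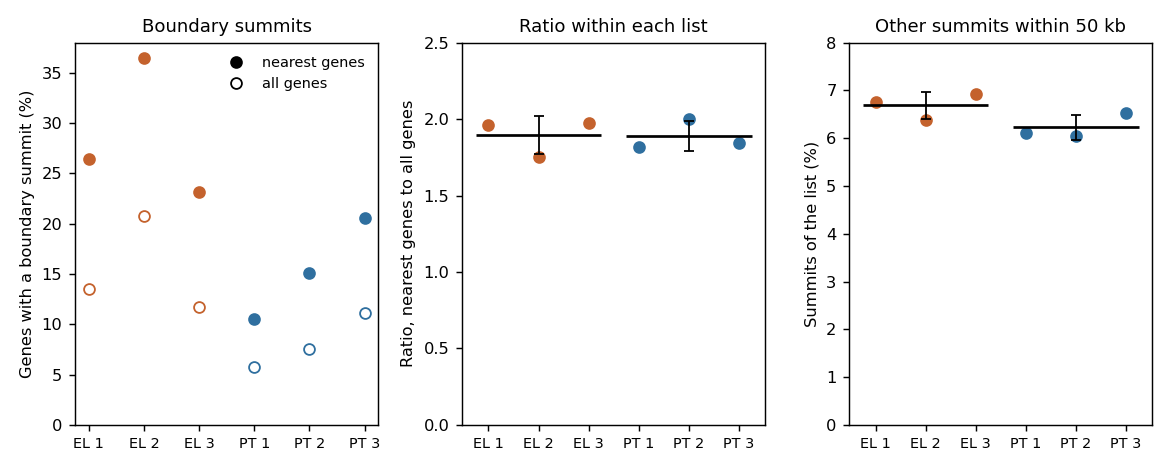
Per library, the share of the 458 nearest genes (filled) and of all protein-coding genes (open) with a boundary summit (left, %), the ratio of these shares (middle) and the share of a list's other summits within 50 kb of an EL-only region (right, %); black lines are group means and error bars 1 SD. The ratios of EL and PT overlap, with means of 1.90 and 1.89.

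Among 13 gene lists, the genes of EMT and mesenchymal cells had the largest share as nearest genes. Of its 30 genes, 10 (33.3%) were nearest to an EL-only region, beside 2.09% of all genes. Since genes with wide flanks collect more regions, the regions were also counted per Mb of the space between genes nearest to each list. The EMT list had 14 EL-only regions, or 1.52 per Mb, against 0.356 per Mb over all genes, and they were 24.6% of its 57 between-gene regions, against 11.7% over all between-gene regions. None of the 57 was bound in all 6 libraries, where the share over all between-gene regions was 4.66%. The same held for the 43 between-gene regions of the TGF-beta and BMP list. It also held for the luminal, basal, epithelial junction, leukocyte and lung epithelial lists, so it did not set the EMT list apart. The lists were drawn up with results of these data known, so the counts are a description.

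Beside the 4 regions at Col1a2, the strongest regions of the EMT list lay near Twist1 and Itga5. Twist1, a basic helix-loop-helix factor that drives EMT, had a region 7387 bp downstream with percentiles of 74.1, 84.8 and 85.6 in EL replicates 1, 2 and 3. Itga5, an integrin that binds fibronectin, had one 10107 bp upstream with 81.7, 86.9 and 72.6. Twist2, Zeb2 and Fn1 (fibronectin) had regions with lowest percentiles of 63.9, 61.3 and 49.9, and Zeb2, a repressor of E-cadherin, had another at 24.9. Itgb1, Postn (periostin), Col5a1 and Col1a1 had 1 region each, with lowest percentiles of 32.6, 22.0, 3.14 and 0.574. These names beyond the first 4 regions were chosen after their values were seen, to account for all 10 genes. At the boundaries of the 30 genes, a summit was present for 14, 18 and 16 in EL and for 0, 2 and 4 in PT. Over all protein-coding genes it was present for 13.5%, 20.8% and 11.7% in EL and for 5.76%, 7.53% and 11.1% in PT, so EL stood higher there too. The lists of TGF-beta and BMP, WNT, and ERBB and MAPK genes also had every EL count above every PT count. So did the developmental transcription factors and the fibroblast and adipocyte markers. The remaining lists did not. Among these, luminal mammary genes had a boundary summit for 2, 5 and 2 of 27 in EL and for 4, 4 and 6 in PT. Epithelial junction genes had one for 7, 4 and 4 of 30 in EL and for 5, 6 and 9 in PT.

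Mesenchymal genes are also genes of fibroblasts, and the list of fibroblast and adipocyte markers had EL-only regions too. They lay near 3 of its 20 genes, with 2.77 regions per Mb from a total of 4 regions. Fabp4, a fatty acid carrier of adipocytes, had a region 7816 bp away with percentiles of 93.8, 95.2 and 82.5 in EL replicates 1, 2 and 3. Col6a3, a type VI collagen chain, had 2 regions with lowest percentiles of 66.9 and 36.6, and Dcn (decorin) had one at 55.8. A boundary summit was present for 5, 8 and 5 of the 20 markers in EL and for 0, 1 and 1 in PT. EL also led across the whole protein-coding set, at a mean share of 15.3% against 8.14%. Whether the markers differ from that background was not tested. Endothelial, leukocyte and lung epithelial markers, 16, 20 and 16 genes, were nearest to no EL-only region, but only 7, 4 and 3 regions of any kind lay between genes next to them, too few to set against the 2.09% of all genes. A boundary summit was present for 3, 4 and 3 of the lung epithelial markers in EL and for 0, 2 and 3 in PT, and for at most 2 of the endothelial or leukocyte markers in any library. Summits do not measure cell numbers, and the part of fibroblasts or adipocytes in the EL spheres was not tested.

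Genes of ERBB and MAPK signalling, the pathway downstream of the HER2 oncogene, were nearest genes in 8 of 46 cases (17.4%), with 1.60 regions per Mb. Over all genes these values were 2.09% and 0.356 per Mb. EL-only regions were 16.4% of the 55 between-gene regions of the list, against 11.7% over all. Errfi1, a feedback inhibitor of ERBB receptors, had 2 regions upstream, at 68775 bp with percentiles of 84.6, 95.3 and 89.2 in EL replicates 1, 2 and 3, and at 81438 bp with 62.8, 80.7 and 68.6. Jun, an AP-1 subunit, had a region 42521 bp upstream with 72.8, 88.1 and 85.6, which is the one at the start of the lncRNA Junos printed above. Myc, a proto-oncogene transcription factor, had one 59064 bp away with 83.8, 86.1 and 67.7. The other 5 genes, Fosl2 and Jund (AP-1 subunits), Hbegf (a ligand of ERBB receptors), and Spry4 and Dusp6 (feedback inhibitors), had lowest percentiles of 50.2, 13.2, 16.3, 14.2 and 7.71. The boundary of Jun had a summit in 3 EL and 2 PT libraries, and those of Errfi1 and Myc in none.

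Signalling by TGF-beta and BMP ligands, which is known to induce EMT, had 5 of 38 genes (13.2%) as nearest genes. Acvr2a, an activin receptor, had a region 432192 bp upstream with percentiles of 75.2, 90.2 and 86.6. Id3, an inhibitor of basic helix-loop-helix factors, had one 8526 bp upstream with 74.2, 75.6 and 70.4. Inhba, an activin subunit, had one with a lowest percentile of 40.4, Id4 had 2, at 36.6 and 27.8, and Tgif1, a repressor of SMAD signalling, one at 18.8. The density was 0.784 per Mb, and EL-only regions were 14.0% of the 43 between-gene regions of the list, near the 11.7% over all.

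Genes tied to tumour cell dormancy had 4 of 24 (16.7%) as nearest genes, at 0.780 regions per Mb. Their flanks are wide, with a median space between genes of 103 kb per gene against 10.7 kb over all genes. EL-only regions were 14.7% of the 34 between-gene regions of the list, near the 11.7% over all. Bhlhe40, a stress-responsive basic helix-loop-helix repressor, had 2 regions with lowest percentiles of 83.1 and 18.8, and summits at its boundary in all 6 libraries. Klf4, a reprogramming factor, had one 35116 bp upstream with percentiles of 79.7, 74.3 and 82.5, and Ddr1, a collagen receptor kinase, one with a lowest percentile of 34.2. Of the 47 genes of WNT signalling 3 (6.38%) were nearest genes, beside 2.09% of all genes. They were Fzd2, Wnt7b and Dkk1, with lowest percentiles of 94.6, 29.9 and 24.9. The density of this list was 0.624 per Mb, against 0.356 over all genes. EL-only regions were 6.98% of its 43 between-gene regions, below the 11.7% over all. Developmental transcription factors had 6 of 81 (7.41%), but their flanks are wide, and their density of 0.330 per Mb was under that of all genes. En1, Tshz2, Pbx3 and Sox4 led them, with lowest percentiles of 88.1, 73.6, 60.5 and 50.5, followed by Hand2 and Tcf4 with 43.8 and 36.6.

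Of the epithelial lists, none of 27 luminal mammary genes, 1 of 16 basal mammary genes (Id4, 6.25%) and 1 of 30 epithelial junction genes (3.33%) were nearest genes, beside 2.09% of all genes. Counts of 0 and 1 set none of these lists apart. The junction gene was Epcam, an epithelial adhesion molecule, with a region 85256 bp upstream at percentiles of 40.4, 70.0 and 36.6. The density was 1.06 regions per Mb for the basal list and 0.939 for the junction list, and the luminal list had 9 between-gene regions, none of them EL-only.

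**Figure D5:**
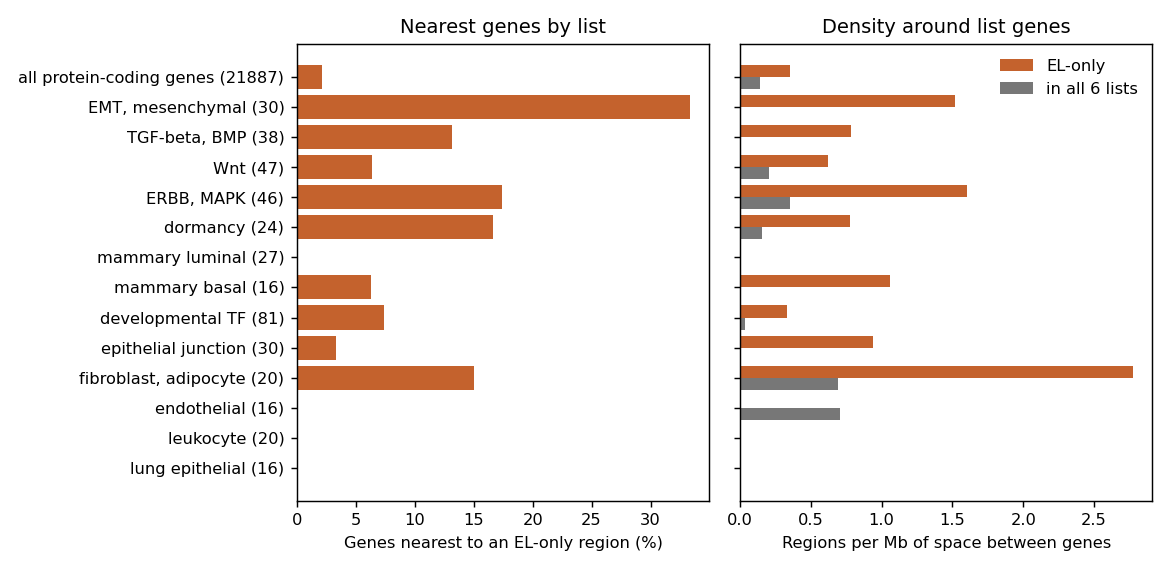
For 13 gene lists and all protein-coding genes (rows, with the number of genes), the share of genes nearest to an EL-only region between genes (left, %) and the number of regions per Mb of the space between genes nearest to them (right), EL-only and bound in all 6 libraries. The EMT list reaches 33.3% against 2.09% of all genes, and developmental transcription factors stand at 0.330 per Mb, just under the 0.356 of all genes.

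Regions between protein-coding genes can still lie in genes of non-coding RNA. Of the 537, 177 (33.0%) lay inside a lncRNA gene or within 1 kb of its boundary, against 40.2% of the regions bound in all 6 libraries and 29.8% of all regions between genes. A miRNA gene lay within 1 kb of 2 of them (0.372%), near the 0.457% of all regions between genes. Mature miRNAs repress messenger RNAs that pair with their seed, bases 2 to 8, printed here in capitals to identify the products next to these regions (RefSeq, GRCm38.p6). The seeds of these miRNAs differ.
mmu-let-7i-5p: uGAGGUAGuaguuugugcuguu
mmu-miR-7b-5p: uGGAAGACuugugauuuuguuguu

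The region next to let-7i, a member of the let-7 family known to restrain growth and stem cell genes, spans chr10:122986080-122986240, 356 bp from the hairpin, with percentiles of 9.31, 62.0 and 36.6 in EL replicates 1, 2 and 3. A summit of PT replicate 3, at percentile 8.58, lay 250 bp from this region. The region next to miR-7b spans chr17:56242110-56242198, 790 bp from the hairpin, with percentiles of 24.9, 80.2 and 33.3. Both were weak in at least 1 EL list.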

How the data were processed

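ZFP281 chromatin immunoprecipitation was compared between 3 EL and 3 PT libraries. Reads were paired, 150 bp long, per the labels' protocols. The submitters' processing notes name Picard, Bowtie2 2.3.4.3 and build mm10. Which program called the peaks, and whether inputs were used, is not given in the sources used here. Each library has 1 list deposited by the authors, so summits were called per sample. The deposited score is the authors' own, with its definition not stated. It served only to rank summits within a list and for limits of 5 and 10. The lowest score of a list was between 1.30 and 1.55. Depth is unknown, so no interval was given.

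Merging within 200 bp used the summits of chromosomes 1 to 19, X and Y, with positions counted from 1. No pair of lists shared more than 81 identical positions. Genes were those of the RefSeq table of GRCm38.p6, the mm10 build (21887 protein-coding). Strand was taken from the promoter table, which covers 79.9% of them. All 398 symbols of the 13 gene lists matched. The 2 measures compared used an exact permutation test of 3 against 3 libraries with Benjamini-Hochberg adjustment over both, and p-values measure only the spread between these libraries. Regions named were the 10 with the highest and the 3 with the lowest lowest percentile, up to 4 per gene list, and those next to the limits of the rule; others were chosen after their values were seen. The members, gene lists and tests were chosen with earlier results of these data known. Alternatives were other merging distances, gene distances, windows, score limits, equal list lengths, all annotated genes, autosomes, each library left out and a replicate block. Python 3.11.15, numpy 2.4.6 and pandas 2.3.3 were used, and the steps were tested on simulated data.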

Additional observations from a re-analysis of the deposited data

How the results depend on the processing

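The number of EL-only regions between genes was within 1.5 times of 537 under 12 of 17 alternatives. It was 303 with merging at 50 bp (276 of the 537 kept), 231 with scores of at least 10 (154 kept), 129 with lists of equal length (102 kept) and 303 clear of all annotated genes, and from 551 to 893 with 1 library left out, 893 without EL replicate 3. The EL minus PT difference in the ratio of nearest genes changed sign at merging distances of 50 bp (-0.197) and 1000 bp (-0.00726) and over 10 kb from a gene (-0.0309), and ran from -0.0681 to 0.0839 with 1 library left out. It was 0.358 with lists of equal length and 0.314 with all annotated genes. Its p lay between 0.1 and 1 over 19 alternatives, so no direction can be read. The difference in other summits within 50 kb stayed positive in 20 of 20 alternatives, with p from 0.1 to 0.9, and from 0.0772 to 0.461 percentage points with 1 library left out. With all EL-only regions left out, an alternative chosen after seeing the data, it was 0.828. Same-numbered libraries did not deviate together (r of 0.0623, -0.0325 and -0.0117 across 1573 regions), and the replicate block gave differences of 0.00757 (exact sign-flip test, p = 1) and 0.459 (p = 0.25), where 0.25 is the smallest p. Sequence features over all 537 regions were planned and not run, as no genome sequence was used here. The median percentile of the 537 regions was 37.5 for the lowest of the 3 EL lists and 74.7 in EL replicate 2 on its own. Without read depth, a missing PT summit cannot be told from one below the calling limit.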
